A study of Mus musculus with 14 samples.

Results

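Solute carriers are the membrane proteins that move amino acids, ions, metals, nucleotides, sugars, vitamins and lipids across the plasma membrane and the membranes of organelles. They were followed here across wild-type mammary gland, MMTV-neu gland next to a tumor, and MMTV-neu tumors. The members are the probe sets whose gene symbol in the platform annotation begins with Slc and a family number. Slc2a1 and Slc2a4 were left out. The rule found 183 of the 12488 probe sets on the array, and 182 of them name 1 gene. They stand for 149 genes, of which 107 had a probe set bright enough to test. The rule goes by the symbol alone, so the list also holds 3 genes that are not carriers themselves (Slc9a3r1, Slc9a3r2 and Slc4a1ap). Genes were grouped by the substrate their family is named for. The tested genes comprised 19 of 27 for amino acids and peptides, 4 of 7 for amines and creatine, 13 of 22 for ions, and 15 of 16 for metals. There were 10 of 12 for nucleosides and nucleotide sugars, 17 of 20 in the mitochondrial Slc25 family, 8 of 12 for sugars, inositol and monocarboxylates, and 18 of 30 for lipids, vitamins and organic ions.

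Most plasma membrane carriers do not use ATP themselves. They draw on the sodium gradient kept up by the sodium pump, exchange one solute for another, or let a solute run down its own gradient. In the mammary gland, carriers on both faces of the secretory epithelium deliver the amino acids, phosphate, zinc and other solutes of milk. In fat cells, which make up much of the resting gland, the mitochondrial citrate and dicarboxylate carriers serve lipid synthesis, and fatty acid transport proteins of the Slc27 family serve lipid uptake.

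RNA from 14 samples was measured, each on its own 1-color oligonucleotide array. MMTV-neu mice carry the neu oncogene under the long terminal repeat promoter of the mouse mammary tumor virus, which is active in mammary epithelium. The samples were 5 MMTV-neu tumors (22, 24, 26, 50 and 52), 2 further tumors named set B (80 and 81), 4 preneoplastic MMTV-neu glands surrounding a tumor (23, 25, 49 and 51, called adjacent gland) and 3 wild-type glands (40, 41 and 42). Each wild-type array held RNA pooled from 5 mice. Pool 40 came from 31-week mice of 87.5% FVB and 12.5% CF-1 background, and pools 41 and 42 from 41-week mice of 97% FVB and 3% CF-1 background. The labels call the wild-type glands age-matched. The ages and strain shares of the MMTV-neu animals are not given in the sources used here, and a difference between wild-type and MMTV-neu samples cannot be told apart from one of strain or of pooling. Whether the tumors and adjacent glands came from separate animals is not given in the labels, so the p-values reflect the spread between these arrays alone.

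The deposited values are array intensities on a linear scale, and every array has the same trimmed mean (1500.67 to 1500.9). An intensity depends on the probes, so levels are compared between samples and not between genes. Values under 101 were set to that floor before log2 was taken. A gene was called when its moderated p in limma was under 0.05 after Benjamini-Hochberg adjustment over all 8616 probe sets tested. The arrays came from 5 lots, and no lot, as numbered in the labels, held both tumors and wild-type pools. Lots 2004097 (tumors 50 and 52) and 2004907 (glands 49 and 51 and pool 40) differ by swapped digits and may be 1 lot, which the labels do not settle. Wild-type pool 42 stood apart in the control probes for RNA integrity: its log2 ratio of 3' to 5' Gapdh signal was 1.48, against -0.50 to 0.43 on the other arrays. The same ratio for actin was 0.90 to 1.51 in the wild-type pools and 0.08 to 0.76 in the 5 tumors. The makeup of the tissue also differed. All 7 white adipocyte markers tested fell in tumors, with a summed intensity of 173080 to 253570 in the wild-type pools, 82210 to 141970 in adjacent gland and 4111 to 9596 in tumors, and Cidec and Plin4 were at the floor in every tumor. All 6 fibroblast markers fell too (107270 to 132800 in the pools, 10316 to 27682 in tumors), as did 5 of 7 for skeletal muscle (47816 to 89388 in the pools, 1264 to 6442 in tumors). The muscle marker Ckm, with 1 pool under the floor, rose at least 3.39-fold (limma, adjusted p = 0.00894). With array lot added to the fit as a block, its log2 difference was -0.38. All 3 brown adipocyte markers tested fell (14554 to 27256 in the pools, 664 to 1612 in tumors), and Ucp1 was at the floor in every tumor. For luminal epithelium 6 of 8 rose (47513 to 51537 in the pools, 73942 to 122370 in tumors). The 1 that fell, Krt19, was at least 55.1-fold lower in tumors (limma, adjusted p = 5.95e-06). Of the basal epithelium markers 3 of 4 fell and none rose (15348 to 18501 in the pools, 1601 to 4023 in tumors). Of the endothelial markers 4 of 6 fell and none rose (10758 to 13922 in the pools, 2480 to 3406 in tumors). The part of these shifts in the results below was not tested, and in whole tissue fewer cells of a type and less RNA per cell cannot be told apart.

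In tumors against wild-type gland, 33 of the 107 solute carrier genes were called, 21 higher and 12 lower. Over all 6397 genes tested, 30.6% were called (15.8% higher and 14.7% lower), so the share among the carriers lay near the background. The counts of substrate groups and partner genes given below for this comparison stand beside the same shares. No group was tested against them. The median log2 difference was 0.26 for the carriers and 0.13 for all genes. The split into higher and lower depended on the processing. Without the filter on dim probe sets, 19 carriers were higher and 18 lower, with 19.1% of all probe sets called. The split was 17 and 14 without the intensity trend, and 18 and 14 with quantile normalization. The carriers that fell were led by Slc1a5, Slc27a1, Slc5a6 and 6 members of the mitochondrial family, and the carriers that rose were led by the nucleoside transporter Slc29a1 and by ion carriers. The count fell without any of the wild-type pools, as did the share of all probe sets called, which was 29.9% with every array in. Without pool 40 the count was 26, and without pool 41 it was 27, with 23.9% and 21.6% of all probe sets called. Without wild-type pool 42 the count was 23, 14 higher and 9 lower, all of them among the 33, with 20.6% called. The 10 genes that lost their call without that pool were Slc12a4, Slc25a25, Slc25a44, Slc34a2, Slc39a4, Slc39a7, Slc41a1, Slc4a1ap, Slc5a1 and Slc6a18. With array lot as a fixed block, 3 carriers were called (Slc29a1 higher, Slc1a5 and Slc27a1 lower) against 4.36% of all genes, and 9 with the lots 2004097 and 2004907 merged. The block links tumors and wild-type pools through the adjacent glands, and because pools 41 and 42 have a lot of their own, its wild-type arm is pool 40 alone, which is assumed to vary like the other arrays. Tumors 50 and 52 also have a lot of their own unless the lots are merged, so its tumor arm is tumors 22, 24 and 26.

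**Figure D1:**
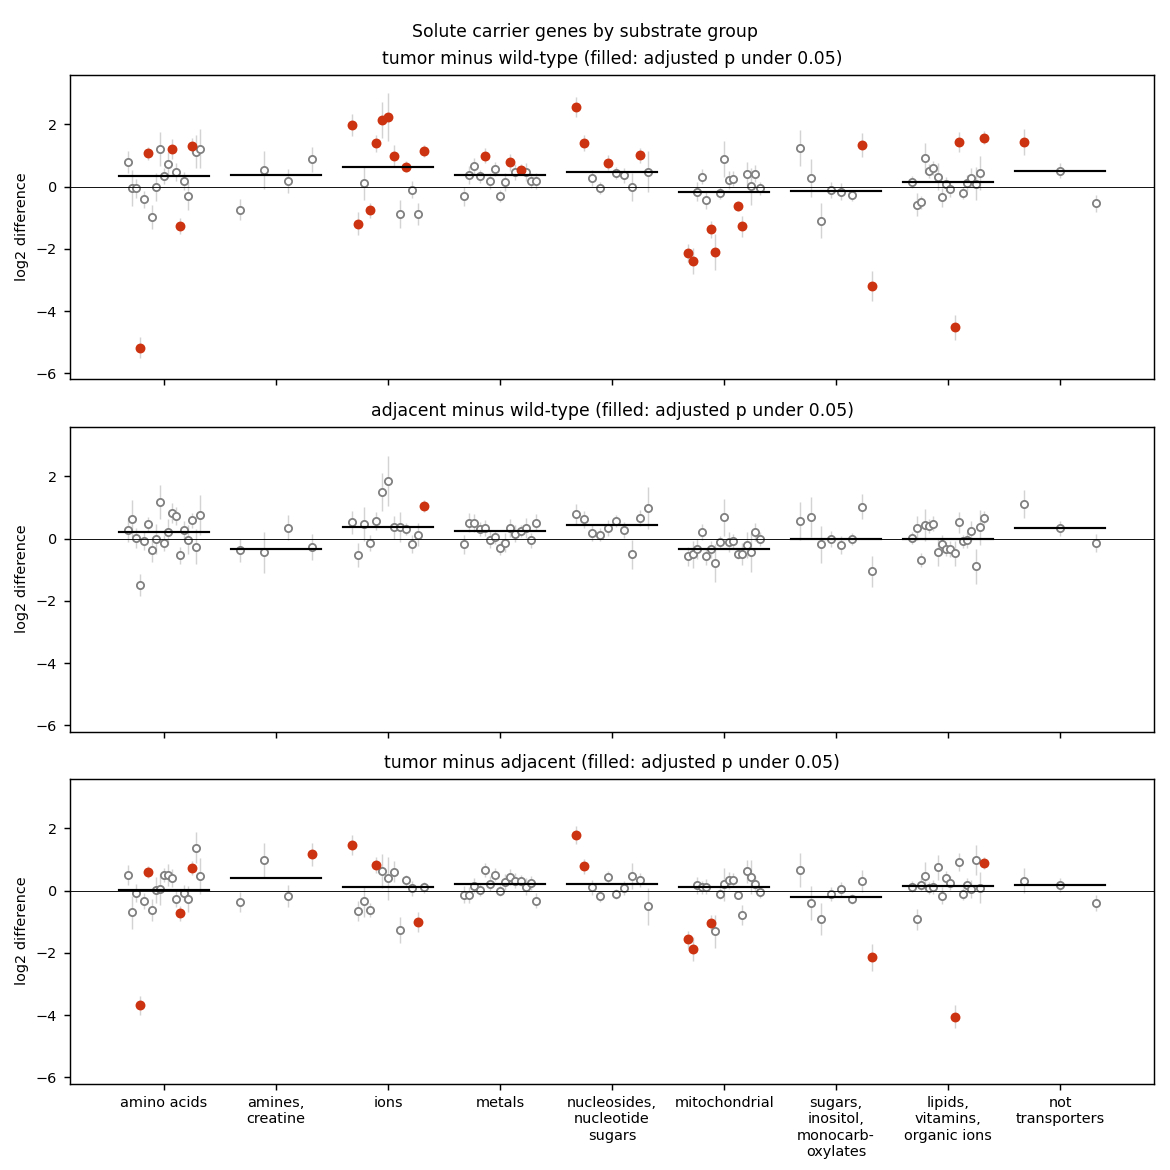
Log2 difference (vertical axis) of each of the 107 tested genes, arranged by substrate group and, within a group, by symbol, for tumors against wild-type gland, adjacent against wild-type gland, and tumors against adjacent gland. Filled points were called at an adjusted p under 0.05, grey bars are standard errors of the limma fit, and black lines are group medians. In tumors against wild-type gland the called mitochondrial genes all lie below 0 and the called nucleoside and metal genes all lie above it (with array lot as a block the metal gene Slc39a4 is below 0), while in adjacent gland a single ion carrier, Slc9a8, is filled.

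The reference table of mouse promoters held an entry for 24 of the 33 called genes, 15 higher and 9 lower. Windows of 250 bases before the annotated start were searched on both strands for the E-box CACGTG, the CCAAT box CCAAT and the GC box GGGCGG. They were also searched for a sterol element (TCACNCCAC) and a GAS element (TTCNNNGAA). Of 32851 promoters of this length, 6.0% held the E-box, 33.8% the CCAAT box, 32.7% the GC box, 1.1% the sterol element and 7.0% the GAS element. Some genes have several annotated starts, so the 15 higher genes had 24 windows and the 9 lower ones 15, and some windows of a gene overlap. The E-box was in 4 of the 24 windows (16.7%) and in 3 of the 15, the CCAAT box in 4 (16.7%) and 8 (53.3%), the GC box in 13 (54.2%) and 11 (73.3%), and the other motifs in none. These counts describe letters in a window and were not tested. The promoters below are those of the 2 mitochondrial carriers with the largest falls (both exchange malate) and the first of the 2 windows of the phosphate carrier Slc20a1, which rose. They are printed 5' to 3' on the gene's strand from RefSeq on GRCm38.p6, with matches to the first 3 motifs, on either strand, in capitals.
Slc25a1, chr16:17928220-17928469, minus strand: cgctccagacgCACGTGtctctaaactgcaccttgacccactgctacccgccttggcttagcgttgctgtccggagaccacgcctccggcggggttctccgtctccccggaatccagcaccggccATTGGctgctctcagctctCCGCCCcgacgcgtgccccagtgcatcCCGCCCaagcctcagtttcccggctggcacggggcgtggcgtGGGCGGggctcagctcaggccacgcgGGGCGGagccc
Slc25a10, chr11:120491587-120491836, plus strand: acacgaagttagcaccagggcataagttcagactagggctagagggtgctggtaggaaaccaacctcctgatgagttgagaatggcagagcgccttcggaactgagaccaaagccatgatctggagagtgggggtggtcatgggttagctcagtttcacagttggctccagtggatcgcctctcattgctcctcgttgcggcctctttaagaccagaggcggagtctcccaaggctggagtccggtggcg
Slc20a1, chr2:129198523-129198772, plus strand: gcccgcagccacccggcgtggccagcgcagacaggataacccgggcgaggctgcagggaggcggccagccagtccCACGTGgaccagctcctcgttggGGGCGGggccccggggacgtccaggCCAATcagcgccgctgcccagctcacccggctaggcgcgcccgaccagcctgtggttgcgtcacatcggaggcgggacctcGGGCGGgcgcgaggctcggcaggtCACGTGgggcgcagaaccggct
The window of Slc25a1 held 1 E-box, 239 bases before the start, 1 CCAAT box and 4 GC boxes, that of Slc25a10 held none of these, and this window of Slc20a1 held 2 E-boxes, at 175 and 22 bases before the start. The other window of Slc20a1, chr2:129206846-129207095, held 1 GC box and neither an E-box nor a CCAAT box.

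Amino acid carriers held the largest single difference of the whole family. Slc1a5, an exchanger of neutral amino acids that carries glutamine, read 9764, 13429 and 16133 in the wild-type pools. The adjacent glands read 5685, 3453, 3994 and 5646, and the tumors 312, 172, 438, 374 and 650. Set B read 346 and 281. The 3 levels did not overlap: every tumor lay below every adjacent gland, and every adjacent gland below every pool. Tumors were 36.1-fold lower than wild-type gland (log2 -5.17 ± 0.34, SE; limma, adjusted p = 2.37e-08) and 12.9-fold lower than adjacent gland (-3.69 ± 0.31, adjusted p = 6.22e-07). The call held with each array left out in turn. With lot as a block the difference was -4.99 (adjusted p = 0.000974), of which the wild-type side is pool 40 alone. The step from wild-type to adjacent gland, -1.49 ± 0.35, had an adjusted p of 0.0525 in limma and was not called.

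Other amino acid carriers moved by less, and in both directions. Of the 19 tested, 3 rose, 2 fell and 14 were not called in tumors against wild-type gland, with a median of 0.34. Slc7a5, the light chain of the exchanger for large neutral amino acids such as leucine, read 2581, 2227 and 2200 in the pools, and 3465, 3558, 2723 and 4442 in adjacent gland. The tumors read 5687, 7140, 3656, 8470 and 5166. All tumors lay above all pools, and tumor 26 fell within the range of the adjacent glands. Slc7a5 was 2.48-fold higher in tumors than in wild-type gland (log2 1.31 ± 0.24, limma, adjusted p = 0.000571). Its heavy chain partner Slc3a2, which brings the light chain to the plasma membrane, read 6997 to 7791 in the pools and 7086 to 13584 in tumors, and its difference of 0.34 ± 0.25 was not called (adjusted p = 0.316). The sodium-coupled carrier Slc38a2, which takes up small neutral amino acids, read 1869 to 3106 in the pools and 3722 to 6533 in tumors. It rose 2.10-fold (1.07 ± 0.21, limma, adjusted p = 0.00111) with no overlap. The taurine carrier Slc6a6 read 3691 to 5187 in the pools and 1518 to 3005 in tumors, and fell 2.41-fold (-1.27 ± 0.26, limma, adjusted p = 0.0015). Slc6a18, a neutral amino acid carrier best known from kidney, rose from 201 to 454 in the pools to 550 to 907 in tumors (1.21 ± 0.31, limma, adjusted p = 0.00791). Without pool 42 its adjusted p was 0.0613. Slc38a10, which with Slc3a2 was the brightest of the group called in none of the main comparisons, differed by -0.41 ± 0.27. Slc7a11, the cystine carrier, was on the array but too dim to test, at 22.4 to 230.3.

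Among genes of the amino acid response, 2 of 6 tested rose in tumors against wild-type gland and none fell. Trib3, a target and inhibitor of that response, rose 3.67-fold (1.88 ± 0.48, limma, adjusted p = 0.00776), and the transcription factor gene Cebpb rose 2.27-fold (1.18 ± 0.28, adjusted p = 0.00461). Atf4, its central transcription factor, and Asns, which makes asparagine, were not called, at -0.38 ± 0.23 and -0.25 ± 0.21.

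**Figure D2:**
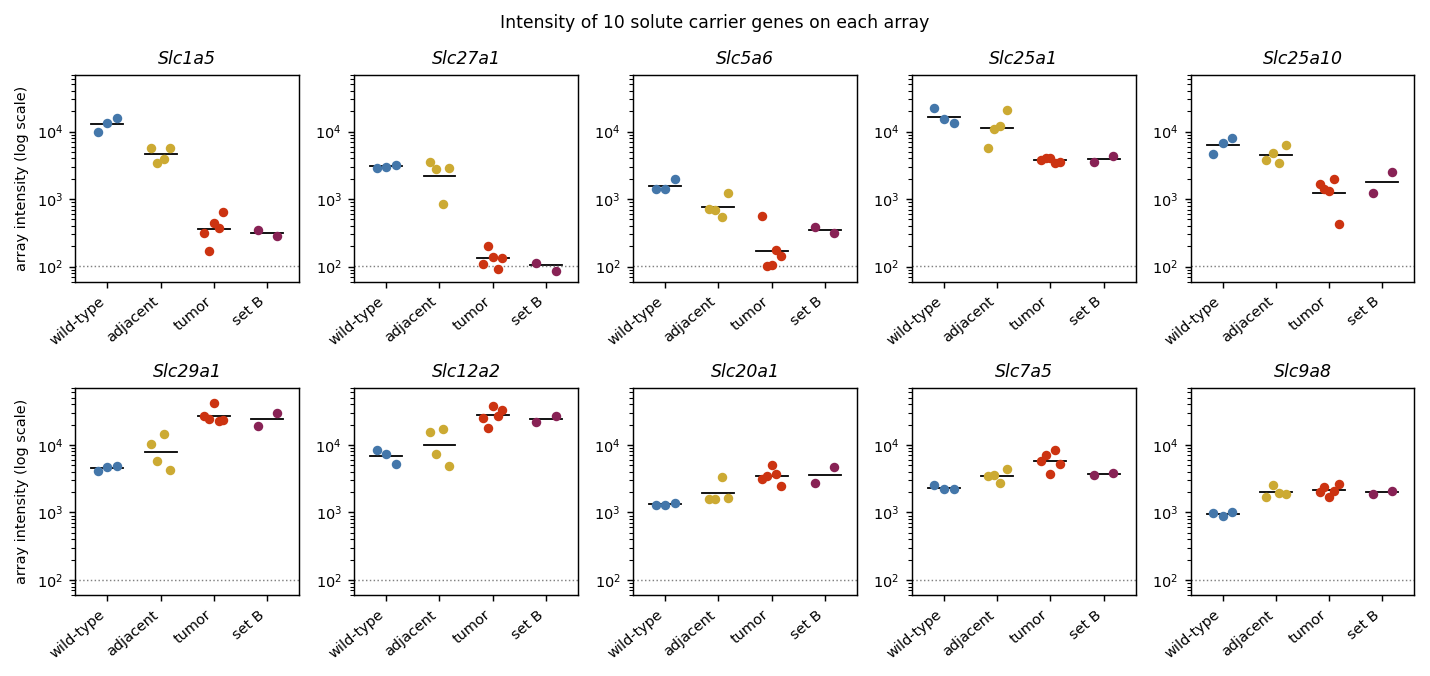
Intensity on each array, on a log axis, for 10 solute carrier genes in wild-type pools, adjacent glands, tumors and set B tumors. Points are single arrays, black lines are geometric means after flooring, and the dotted line is the floor of 101. Slc1a5 and Slc27a1 are far lower in every tumor than in every pool and adjacent gland, Slc29a1 is higher in every tumor than elsewhere outside set B, and Slc9a8 is higher in adjacent gland and tumors alike than in the pools.

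Carriers of nucleosides and nucleotide sugars rose where they were called: 4 of 10 higher and none lower, with a median of 0.45. Over all genes 15.8% were higher and 14.7% lower. Slc29a1, which equilibrates nucleosides across the plasma membrane, read 4088, 4775 and 4840 in the pools. The adjacent glands read 10252, 5788, 14691 and 4319, and the tumors 26504, 24535, 41675, 22728 and 23357. Set B read 19037 and 29744. Every tumor exceeded every pool and adjacent gland, while adjacent gland 51 lay among the pools. Tumors were 5.93-fold above wild-type gland (2.57 ± 0.33, limma, adjusted p = 2.34e-05) and 3.45-fold above adjacent gland (1.79 ± 0.30, adjusted p = 0.000652). With lot as a block, which leaves pool 40 as the only wild-type array compared, the difference was 2.93 (limma, adjusted p = 0.0428). A second, dimmer probe set of Slc29a1 rose 2.79-fold in tumors (1.48 ± 0.50, adjusted p = 0.0343) and differed by 0.08 ± 0.46 between tumors and adjacent gland.

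The other 3 serve the Golgi or belong to the same Slc35 family. Slc35a1, which carries the sialic acid donor into the Golgi, read 1724, 1517 and 1290 in the pools, and 4043, 2205, 5413, 4702 and 4253 in tumors. It rose 2.64-fold with no overlap (1.40 ± 0.26, limma, adjusted p = 0.000662). Slc35b2, the carrier of the sulfate donor of the Golgi, rose 1.70-fold (0.77 ± 0.24, adjusted p = 0.0235), from 3040 to 3921 in the pools to 4287 to 7235 in tumors. Slc35e4 rose 2.01-fold (1.01 ± 0.24, adjusted p = 0.00554). Among those not called were Slc35b1 (-0.05 ± 0.19) and Slc35c2 (0.44 ± 0.18). For Slc35e1, the brighter probe set differed by -0.02 ± 0.45 and a dimmer one by 1.19 ± 0.37 (limma, adjusted p = 0.0227), so the gene has no single direction here.

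Ion carriers had the largest share of calls among the main substrate groups, 9 of 13, with 7 higher and 2 lower and a median of 0.64. Over all genes 30.6% were called, 15.8% higher and 14.7% lower. Of the 9, Slc12a4, Slc34a2 and Slc41a1 lost their calls without pool 42, and Slc41a1 kept its call in 6 of 14 fits with 1 array left out. The chloride carriers of the Slc12 family that were called went in both directions. Slc12a2, which brings sodium, potassium and chloride into the cell, read 8473, 7317 and 5282 in the pools. The adjacent glands read 15618, 7250, 17086 and 4917, and the tumors 25269, 18100, 37244, 27166 and 33163. All tumors lay above all other samples outside set B, and the adjacent glands spanned the pools and beyond. Slc12a2 rose 3.97-fold over wild-type gland (1.99 ± 0.35, limma, adjusted p = 0.000514) and 2.77-fold over adjacent gland (1.47 ± 0.32, adjusted p = 0.00547). Of the 3 potassium and chloride exporters tested, 2 fell. Slc12a4 read 1214 to 1758 in the pools and 376 to 1185 in tumors (-1.19 ± 0.36, adjusted p = 0.0205), and Slc12a7 read 1709 to 2205 and 991 to 1573 (-0.77 ± 0.24, adjusted p = 0.0253). The third, Slc12a5, best known from neurons, differed by 0.12 ± 0.54 and was not called (adjusted p = 0.888). Stk39, a kinase known to activate Slc12a2, rose 6.53-fold (2.71 ± 0.30, limma, adjusted p = 6.01e-06). Wnk1, a kinase upstream of it, fell (-0.71 ± 0.20, adjusted p = 0.0143).

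Both plasma membrane phosphate carriers tested rose in tumors, while Slc25a3, the phosphate carrier of mitochondria, differed by 0.88 ± 0.56 and was not called (limma, adjusted p = 0.256). Slc20a1, the sodium-phosphate carrier found in most cells, read 1280, 1293 and 1393 in the pools, and 3178, 3423, 5005, 3741 and 2464 in tumors. It rose 2.63-fold with no overlap (1.39 ± 0.28, limma, adjusted p = 0.00134). Slc34a2, the epithelial carrier that supplies phosphate to milk, read 294, 596 and 105 in the pools, and 139, 1556, 1000 and 3860 in adjacent gland. The tumors read 870, 936, 1595, 1624 and 1450. Tumors lay above the pools, while the adjacent glands ran from among the pools to above the tumors. Its log2 difference of 2.24 ± 0.77 (limma, adjusted p = 0.0373) was 1.58, with an adjusted p of 0.2, without pool 42. The sulfate carrier Slc26a2 read 30.5, 130 and 44.5 in the pools, 2 of them under the floor, and 244 to 976 in tumors. It was at least 4.37-fold higher in tumors (2.13 ± 0.58 on floored values, limma, adjusted p = 0.0118).

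The remaining ion carriers that rose were Slc41a1, a magnesium carrier, Slc9a8, a sodium-proton exchanger of the Golgi and endosomes, and Slc4a2, a chloride-bicarbonate exchanger. Slc41a1 read 1829 to 1870 in the pools and 2067 to 4742 in tumors (0.97 ± 0.35, limma, adjusted p = 0.0481). Slc4a2, which had the smallest change of the 9 and is named after its values were seen, rose 1.56-fold (0.64 ± 0.18, adjusted p = 0.0138). Slc9a8 rose 2.22-fold (1.15 ± 0.19, adjusted p = 0.000323) and is described with the adjacent gland. Of those not called, Slc4a3 differed by -0.10 ± 0.28 and Slc8a1, the sodium-calcium exchanger, by -0.88 ± 0.35. Slc4a1, the chloride-bicarbonate exchanger of red cells, differed by -0.89 ± 0.46 (limma, adjusted p = 0.158), and both erythroid markers tested fell in tumors (summed intensity 50912 to 103980 in the pools and 13228 to 25236 in tumors). The part of red cells in the Slc4a1 value was not tested. Of the sodium pump, whose gradient these carriers use, 2 of 4 genes tested rose (Atp1b1 and the regulator Fxyd3, 1.91 ± 0.32) and 2 fell (Atp1b3 and the regulator Fxyd1, -3.74 ± 0.38).

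In the mitochondrial family 6 of 17 fell, none rose and 11 were not called. The differences ran from -2.39 to 0.88, with a median of -0.16. Against adjacent gland 3 of 17 fell, the median was 0.10, and with lot as a block the gene's main probe set was called for none of the 17 in either comparison. Slc25a1, which exports citrate to the cytosol, read 22482, 15326 and 13300 in the pools. The adjacent glands read 5692, 10921, 12083 and 20682, and the tumors 3741, 4085, 4035, 3467 and 3559. The tumors were tightly grouped and all lay below the lowest adjacent gland, while the adjacent glands reached into the range of the pools. Slc25a1 was 4.41-fold lower in tumors than in wild-type gland (-2.14 ± 0.30, limma, adjusted p = 5.54e-05), and its second probe set was 6.51-fold lower (-2.70 ± 0.29, adjusted p = 4.81e-06). With lot as a block the brighter one was not called (-1.51, adjusted p = 0.107) and the dimmer one was (-2.15, adjusted p = 0.0277). Slc25a10, which exchanges malate or succinate for phosphate, read 4733, 6785 and 8078 in the pools, and 3831, 4819, 3409 and 6379 in adjacent gland. The tumors read 1665, 1406, 1336, 1987 and 431. It fell 5.24-fold from wild-type gland (-2.39 ± 0.41, limma, adjusted p = 0.00036) with no overlap, and tumor 52 was the lowest by a wide margin.

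Slc25a20, which brings acylcarnitines into mitochondria for fatty acid oxidation, read 4997, 4250 and 4190 in the pools and 1651, 1784, 1697, 1855 and 1609 in tumors. It fell 2.60-fold (-1.38 ± 0.27, limma, adjusted p = 0.00102), and adjacent gland 51, at 6436, was above all pools. Slc25a25, the calcium-regulated carrier of ATP-magnesium and phosphate, fell 4.26-fold (-2.09 ± 0.58, adjusted p = 0.0124), and its tumors ranged from 160 to 1295. Slc25a44, a carrier of branched-chain amino acids, fell 2.42-fold (-1.28 ± 0.34, adjusted p = 0.0101). Without pool 42 the adjusted p was 0.0545 for Slc25a25 and 0.0666 for Slc25a44. The ADP/ATP carriers differed from each other in size of change. Slc25a4, the form of muscle and heart, fell 1.55-fold (-0.63 ± 0.15, limma, adjusted p = 0.00512) beside the fall of the muscle markers given above, and Slc25a5, a more widespread form, differed by 0.41 ± 0.27 (adjusted p = 0.273). The brightest mitochondrial carriers called in no comparison were Slc25a39, which carries glutathione (0.26 ± 0.24), and Slc25a36, which carries pyrimidine nucleotides (0.22 ± 0.30). The tumors in which Slc25a1, Slc25a10 and Slc25a20 were lower also had the low white and brown adipocyte markers given above. Among the adjacent glands the brown adipocyte marker Ucp1 read 8266 and 10162 in glands 49 and 51 and 73.2 and 81.3 in glands 23 and 25. Slc25a20 read 3852 and 6436 in the first pair and 2383 and 2547 in the second. The skeletal muscle marker Acta1 went the other way, at 172.6 and 170.2 in the first pair and 17373 and 15563.9 in the second. The pairs also differ in array lot. The part of adipocyte, muscle and lot differences in these falls was not tested.

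Of the carriers of lipids, vitamins and organic ions, 2 of 18 rose and 1 fell, with a median of 0.13. The 2 fatty acid transport proteins that were called went in opposite directions. Slc27a1, the form of fat and muscle, read 2928, 3038 and 3248 in the pools, and 3500, 2776, 857 and 2850 in adjacent gland. The tumors read 110, 203, 139, 93.2 and 133, of which tumor 50 was under the floor, and set B read 112 and 86.2. Every tumor lay below every adjacent gland, and adjacent gland 49 stood below the other adjacent glands. Tumors were at least 23.02-fold lower than wild-type gland (-4.53 ± 0.39 on floored values, limma, adjusted p = 5.24e-07) and at least 16.6-fold lower than adjacent gland (-4.05 ± 0.36, adjusted p = 1.1e-06). Slc27a4, the form known from skin and intestine, rose 2.71-fold, from 443 to 630 in the pools to 798 to 2015 in tumors (1.44 ± 0.32, adjusted p = 0.00315). Slc66a2 rose 2.95-fold, from 2218 to 2720 in the pools to 5789 to 8553 in tumors (1.56 ± 0.21, limma, adjusted p = 3.96e-05). The choline carrier Slc44a1 (-0.20 ± 0.20) and Slc22a17 (0.51 ± 0.22) were the brightest members of the group called in no comparison.

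Of the Slc families named for sugars, inositol and monocarboxylates, 1 of 8 rose and 1 fell, with a median of -0.14. The one that fell, Slc5a6, belongs to the sodium-glucose family but carries the vitamins biotin and pantothenate. It read 1425, 1390 and 1978 in the pools, 724, 702, 536 and 1242 in adjacent gland, and 563, 103, 105, 177 and 143 in tumors. Tumor 22 was above the other tumors and within the range of the adjacent glands. Slc5a6 was 9.11-fold lower in tumors than in wild-type gland (-3.19 ± 0.47, limma, adjusted p = 0.000107). Slc5a1, the sodium-glucose carrier best known from intestine, read 504, 360 and 188 in the pools and 663, 458, 1336, 819 and 1062 in tumors. It rose 2.50-fold (1.32 ± 0.38, limma, adjusted p = 0.0164), although tumor 24 was below pool 40, and without pool 42 its difference was 0.93 (adjusted p = 0.116). Slc2a8 (-0.12 ± 0.25) and Slc50a1 (-0.29 ± 0.18) were not called, and Slc16a1, a lactate carrier, was too dim to test at 12.1 to 438.7.

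Of the metal carriers, 3 of 15 rose and none fell, with a median of 0.37, beside 15.8% higher and 14.7% lower over all genes. Slc30a5, which loads zinc into the secretory pathway, read 668, 682 and 620 in the pools, and 1853, 1283, 1409, 1009 and 1138 in tumors. It rose 1.99-fold (0.996 ± 0.234, limma, adjusted p = 0.00436) with no overlap, and its second probe set rose 2.37-fold (1.25 ± 0.36, adjusted p = 0.0167). Slc39a7, which releases zinc from the endoplasmic reticulum, rose 1.46-fold (0.55 ± 0.19, adjusted p = 0.0355), with tumor 24 below pool 41. For Slc39a4, a zinc importer, the brighter probe set was called higher (0.77 ± 0.27, limma, adjusted p = 0.04), but it was at -0.086 with lot as a block and its other probe set at -0.62 ± 0.36, so its direction is not settled. Slc30a4, the zinc exporter whose loss leaves mouse milk short of zinc, differed by 0.33 ± 0.21 (adjusted p = 0.25). The iron carriers Slc11a1, of macrophages, and Slc11a2, of most cells, differed by -0.32 ± 0.30 and 0.37 ± 0.29, and neither was called. The zinc carriers Slc39a1 (-0.31 ± 0.19) and Slc30a3 (0.65 ± 0.27) were bright and not called, and Slc30a1 was too dim to test. Of other genes of iron and copper handling, 3 of 12 rose and 1 fell in tumors. The transferrin receptor Tfrc rose by 1.12 ± 0.28, the copper pump Atp7a by 2.33 ± 0.34 and ceruloplasmin, Cp, by 1.56 ± 0.30 (limma, adjusted p = 0.00692, 9.06e-05 and 0.000986). Heph, a ferroxidase, fell (-2.76 ± 0.40, limma, adjusted p = 9.22e-05). With lot as a block, whose wild-type arm is pool 40 alone, Tfrc was at -0.125, Atp7a at 2.46, Cp at 1.94 and Heph at -3.38.

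None of the 4 amine and creatine carriers tested was called in tumors against wild-type gland. Their differences were -0.74 ± 0.35 for Slc6a13, which carries GABA, 0.19 ± 0.38 for Slc6a4, the serotonin carrier, 0.53 ± 0.62 for Slc6a2, the noradrenaline carrier, and 0.88 ± 0.40 for Slc6a8, the creatine carrier. The other probe set of Slc6a2 differed by 1.06 ± 0.74. Of the 3 genes that carry an Slc symbol without being carriers, Slc4a1ap was called higher (1.44 ± 0.42, limma, adjusted p = 0.0177). Its pools read 434, 512 and 104, and without pool 42, the last of these, the difference was 0.71 (adjusted p = 0.12). The scaffold genes Slc9a3r1 and Slc9a3r2 differed by 0.51 ± 0.24 and -0.54 ± 0.28 and were not called.

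**Figure D3:**
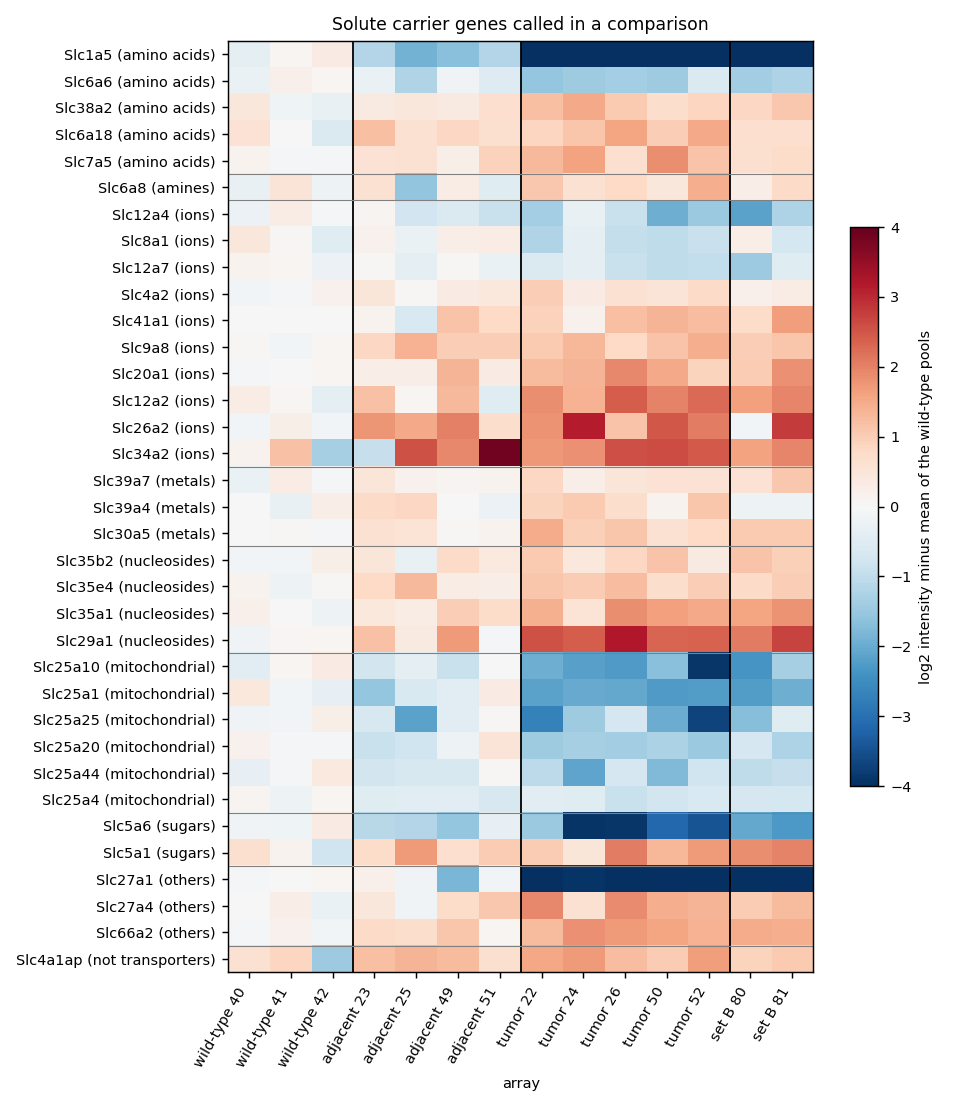
Log2 intensity on each of the 14 arrays minus the mean of the 3 wild-type pools, for the solute carrier genes called in any of the comparisons of tumors, adjacent and wild-type gland, grouped by substrate; the color scale is capped at 4 in either direction. Slc1a5 and Slc27a1 are at the dark blue end in all 7 tumors, the mitochondrial genes are blue in tumors with paler adjacent glands, and Slc34a2 varies from blue to dark red among the 4 adjacent glands.

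Adjacent gland, which carries the transgene but was taken outside the tumor, was compared with wild-type gland to ask which differences are found outside the tumor. These glands surrounded a tumor already present, so they cannot show whether a difference came before it. A single carrier was called, Slc9a8, which was higher, against 1.25% of all genes (0.782% higher). The medians were 0.13 for the carriers and 0.05 for all genes. Slc9a8 read 986, 888 and 1025 in the pools, and 1714, 2512, 1928 and 1900 in adjacent gland. The tumors read 1985, 2398, 1682, 2108 and 2649, and set B 1897 and 2077. The pools were below all other samples, and adjacent glands and tumors overlapped. Slc9a8 was 2.07-fold higher in adjacent than in wild-type gland (1.05 ± 0.20, limma, adjusted p = 0.0191), and tumors differed from adjacent gland by 0.10 ± 0.18 (adjusted p = 0.789). The call was lost without pool 40, 41 or 42 or gland 49 (highest adjusted p, 0.104). Within lot 2004907, which held glands 49 and 51 and pool 40, the difference was 0.96, with no test inside that lot. Adding lot as a block gave the same 0.96 from pool 40 alone on the wild-type side, and Slc9a8 was not called there. Adjacent and tumor comparisons with wild-type gland share the 3 pools. For genes with the largest tumor differences, the adjacent gland values were -1.49 for Slc1a5, -0.48 ± 0.41 for Slc27a1, -1.05 ± 0.50 for Slc5a6, 0.78 ± 0.34 for Slc29a1 and 0.52 ± 0.37 for Slc12a2, and none was called.

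Tumors against adjacent gland compares transgenic tissues with each other. It called 16 carriers, 8 higher and 8 lower, against 15% of all genes (5.75% higher and 9.29% lower), with medians of 0.12 for the carriers and 0.06 for all genes. The 8 higher were Slc29a1, Slc12a2, Slc66a2, Slc20a1, Slc35a1, Slc7a5, Slc38a2 and Slc6a8, and the 8 lower were Slc27a1, Slc1a5, Slc5a6, Slc25a10, Slc25a1, Slc25a20, Slc6a6 and Slc8a1. Slc6a8 and Slc8a1 were not called in tumors against wild-type gland, a comparison that shares the tumors. Slc6a8, the creatine carrier, read 1557, 344, 1251 and 731 in adjacent gland and 2162, 1562, 1758, 1400 and 2781 in tumors. It was 2.24-fold higher in tumors (1.16 ± 0.37, limma, adjusted p = 0.0444), and gland 23 lay within the range of the tumors. Slc8a1 read 467, 349, 504 and 512 in adjacent gland and 182, 325, 214, 205 and 227 in tumors, with no overlap (-1.003 ± 0.324, limma, adjusted p = 0.0493). The mitochondrial carriers Slc25a10, Slc25a1 and Slc25a20 fell by 1.88, 1.57 and 1.03 on the log2 scale (limma, adjusted p = 0.00259, 0.00087 and 0.00899). Of the 16 calls, 9 held with each array left out in turn, and without tumor 22 the count was 9. Of the 14 fits with 1 array left out, the call held in 2 for Slc6a6, 3 for Slc8a1 and 5 for Slc6a8. It held in 4 for both Slc20a1 and Slc38a2, in 7 for Slc35a1 and in 8 for Slc7a5.

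Tumors and adjacent glands met in lot 2001815, so this comparison could be read with lot as a block and within a lot. Both readings compare tumors 22, 24 and 26 with glands 23 and 25 and give the same log2 difference for a gene. They differ in the arrays that set the spread, so they are not separate checks. With the block, 6 carriers were called, 5 of the 16 (Slc1a5, Slc27a1, Slc29a1, Slc38a2 and Slc20a1) and Slc7a7, a light chain for cationic amino acids that was not called without it (2.26, limma, adjusted p = 0.0297), and 7.02% of all genes. With lots 2004097 and 2004907 merged, the block called 20 carriers, 11 higher and 9 lower, among them all 16, against 16% of all probe sets. Within lot 2001815 alone, with 3 tumors and 2 adjacent glands, the differences were -3.95 for Slc1a5, -4.42 for Slc27a1, 1.96 for Slc29a1 and -1.56 for Slc25a10, and these 4 were called (limma, adjusted p = 0.0185, 0.00616, 0.0437 and 0.029). Slc12a2 was at 1.27 and Slc25a1 at -0.997 there, with adjusted p-values of 0.195 and 0.153.

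**Figure D4:**
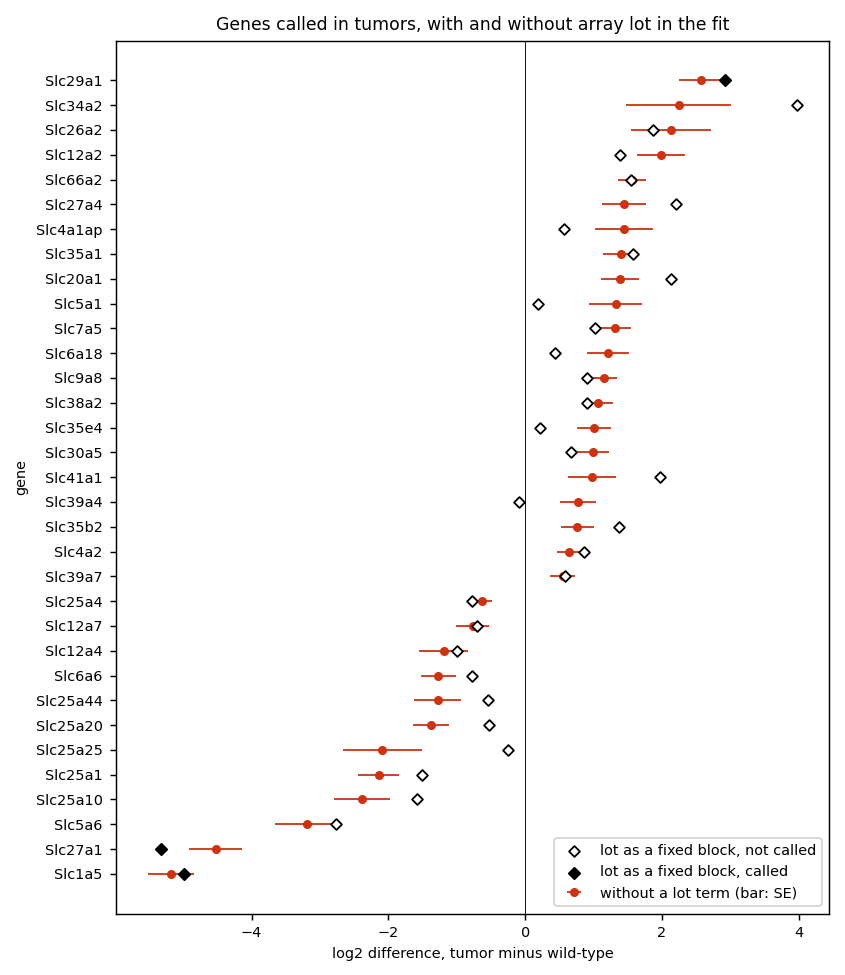
Log2 difference between tumors and wild-type gland (horizontal axis) for the 33 solute carrier genes called, without a lot term (red points, bars are standard errors) and with array lot as a fixed block (diamonds, black where called). The signs are the same in both fits for all but Slc39a4, whose block value is just below 0, and the diamonds of Slc29a1, Slc27a1 and Slc1a5 are black.

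Set B asks whether a second group of tumors repeats the differences of the first. Against the same wild-type pools, set B had 26 carriers called, 13 higher and 13 lower, against 23.6% of all genes (11.3% higher and 12.4% lower). Slc1a5 was 41.2-fold lower (-5.37 ± 0.42, limma, adjusted p = 3.63e-07), and Slc27a1 at least 28.8-fold lower (-4.85 ± 0.49, adjusted p = 4.95e-06). Slc25a1 fell by 2.10 and Slc25a10 by 1.85 on the log2 scale, and Slc29a1 was 5.22-fold and Slc12a2 3.48-fold higher (2.39 ± 0.41 and 1.80 ± 0.44). Between set B and the first tumors none of the 107 carriers, and 0% of all genes, was called by limma. The smallest adjusted p among the carriers was 0.348, for Slc39a1 and Slc39a4. Slc39a1 read 3324 and 2283 in set B and 4108 to 6310 in the first tumors (-0.84 ± 0.22), and Slc39a4 read 3673 and 3681 against 4645 to 8982 (-0.97 ± 0.31). Slc6a13 (-1.02 ± 0.40), Slc38a4, a carrier of small neutral amino acids (-1.02 ± 0.44), and Slc7a5 (-0.62 ± 0.27) had the next smallest p. Slc7a5 read 3628 and 3896 in set B, near the lowest of the first tumors, and was not called against wild-type gland there (0.69 ± 0.29, limma, adjusted p = 0.105). With 2 arrays, and a lot of their own, set B tumors cannot be told apart from their lot.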

How the data were processed

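The authors deposited a linear intensity for each probe set on each of 14 arrays. Their software is not stated in the labels. Trimmed by 2% at either end, the array means were equal, so values were not normalized again. The floor was 101.42, the 20th percentile of all values, and 2.32% of the tested values were at it. After 66 control probe sets were left out, another 3806 were dropped as dim (kept: above the array's 40th percentile on 3 or more arrays), and 8616 were tested. Of the probe sets, 10855 had 1 gene in the platform annotation, 396 several and 1237 none. A gene with several probe sets was represented by the brightest one on average. Names were updated through GRCm38.p6 gene tables.

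The 14 arrays entered 1 fit with 4 groups (limma 3.58.1, R 4.3.3, lmFit and eBayes with an intensity trend, 10 residual and 5.75 prior degrees of freedom). Errors are standard errors of this fit, and tests are two-sided. Where some arrays of the lower group were at the floor, a fold is written as at least. The number of arrays limits the precision. On data simulated for 8616 probe sets, 200 of them changed, 2-fold and 4-fold changes were recovered at rates of 37% and 85% for tumors against wild-type gland (4 false calls). The rates were 25% and 82% for adjacent against wild-type gland (4 false calls) and 49% and 82% for tumors against adjacent gland (10 false calls). The simulated noise was normal and independent between arrays, with no lot effect and no floor. Far fewer probe sets were changed than were called in the measured tumors. The rates and false calls therefore do not cover lot differences and may not carry over to the measured data.

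Members, substrate groups, partner and marker lists were chosen with earlier results of these data known. The rule for naming took every gene called in the first 3 comparisons, up to 8 per substrate group, then up to 2 bright genes per group called in none of them and a list of carriers known in mammary gland. It added the 5 with the smallest p in set B and genes whose probe sets disagreed. Slc4a2, Slc7a7, Slc12a5 and Slc25a3 were named outside it, after their values were seen, as were Slc16a7, Slc22a4, Slc25a14 and Slc31a1. Some genes of that list are not reported here. Alternatives were the floor, the filter, the intensity trend, quantile normalization, array lot as a block, the mean of a gene's probe sets, and each array left out in turn.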

Additional observations from a re-analysis of the deposited data

Results flagged for a closer look

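In the groups of 4 and 5 arrays, 118 pairs of a named gene and a group were searched for 1 array far from the rest by Dixon's 95% critical value, which chance passes in about 1 of 20 groups, and 11 passed. In adjacent gland 49, Slc20a1 read 3370.6 against 1580.3 to 1663.2 in the other glands, Slc27a1 read 856.6 against 2775.7 to 3500, and Slc39a1 read 4088.1 against 5197.6 to 5321.8. In adjacent gland 51, Slc25a44 read 1230 against 707 to 755.8, and Slc25a5 read 4973.9 against 3723 to 3906.6. In tumor 52, Slc25a10 read 431.3 against 1336.3 to 1987.3 in the other tumors, and Slc6a6 read 3004.5 against 1517.9 to 1729.7. In tumor 24, Slc25a39 read 5778.7 against 9879.3 to 12188.9, and Slc30a3 read 7419 against 4849.7 to 5264.4. Slc29a1 read 41675.3 in tumor 26 against 22728 to 26504, and Slc6a4 read 207.3 in tumor 50 against 465.7 to 641.3.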

How the results depend on the processing

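The count of carriers called in tumors against wild-type gland was 33. It was 3 with lot as a fixed block, 9 with lots 2004097 and 2004907 taken as 1 lot, 31 to 37 under the other planned settings, and 23 to 37 with 1 array left out. In adjacent against wild-type gland it was 1. It was 0 with either fixed block, 2 with the floor at the 30th percentile or with the mean of a gene's probe sets, 3 without the filter on dim probe sets, and 0 to 3 with 1 array left out (0 without pool 40, 41 or 42 or gland 49, 3 without gland 51). Slc1a5 was called lower there at the 30th percentile floor, with probe sets averaged, and without tumor 24, tumor 52 or gland 51 (limma, adjusted p = 0.0173 to 0.262 over the arrays left out). In tumors against adjacent gland the count was 16, 6 with lot as a fixed block, 20 with the 2 lots merged, 18 with lot as a random block, and 9 to 16 with 1 array left out (9 without tumor 22). The split there was 8 higher and 8 lower. It was 4 higher and 8 lower without the filter and without the intensity trend, with 8.63% and 13.6% of all probe sets called. For set B against wild-type gland it was 26, and 13 to 32 with 1 array left out (13 without tumor 80 and 14 without tumor 81). Against the first tumors it was 0, and 1 without the filter. A fixed lot block gives no value for set B, which has a lot of its own. Among the named carriers called in the first 3 comparisons, Slc39a4 was the only one to change sign under a planned setting. It went to -0.086 in tumors against wild-type gland with lot as a fixed block. Partner and marker genes were not part of this count. Genes that were not called changed sign there too, such as Slc38a10 (-0.41 to 0.62) and Slc30a3 (0.65 to -0.36). Quantile normalization changed no sign among the named calls and moved the median of all probe sets by less than 0.1 on the log2 scale. Of 32 named calls in tumors against wild-type gland, 20 held with each array left out. The cause of these changes was not tested. No paired analysis was possible because the labels tie no tumor to a gland. Their numbers are consecutive (22 and 23, 24 and 25, 49 and 50, 51 and 52), which may or may not mark the same animal, and a fit on such pairs was not made.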

Other observations

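Some carriers too dim to be tested had measured values that differed between the groups. Slc16a7, a carrier of lactate and other monocarboxylates, read 397.7, 479.2 and 215.5 in the wild-type pools. It read 38.8 to 153.8 in adjacent gland, 11.8 to 29.4 in the first tumors and 110.6 and 66 in set B. Slc22a4, a carrier of organic cations, read 257.3, 246.5 and 477.3 in the pools, 43.7 to 136.2 in adjacent gland and 39.7 to 64.2 in the first tumors. Every first tumor was under the floor of 101 for both genes and every pool above it. Without the filter both were called lower in adjacent gland. Slc25a14, a mitochondrial carrier, was the single gene of the family called between set B and the first tumors without the filter. It read 182 and 280.1 in set B and 40.6 to 100.5 in the first tumors, all of them under the floor.

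Carriers outside the Slc families also fell and rose in tumors against wild-type gland. Of 7 tested, 2 rose and 2 fell. The drug and sterol pumps Abcg1 and Abcg2 rose by 0.89 ± 0.21 and 1.28 ± 0.38 on the log2 scale (limma, adjusted p = 0.0041 and 0.0173). The water channel Aqp1 was at the floor in 4 of 5 tumors and at least 44.2-fold lower, and Aqp7, the glycerol channel of fat cells, was 3.35-fold lower (-1.74 ± 0.35, adjusted p = 0.0015). Among the metal carriers, Slc31a1, which takes up copper, was called higher in set B against wild-type gland (1.12, limma, adjusted p = 0.00877), and the 2 sets of tumors differed by 0.55 (adjusted p = 0.455). A second probe set of Slc31a1 differed by -0.02 (adjusted p = 0.968) and -0.38 in the same comparisons, so the gene has no single direction here.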
